A study of Homo sapiens with 10 samples.

Results

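The metallothioneins are a family of small, cysteine-rich proteins that hold zinc, copper and cadmium ions. The 8 genes described here are MT2A, MT1E, MT1M, MT1A, MT1F, MT1G, MT1H and MT1X, named in the order in which they lie on chromosome 16. They were taken as a list of symbols and matched to the Ensembl identifiers of the count tables, so that they make up 8 of 58884 genes. Their expression was compared between HCT116 cells, a human colorectal carcinoma line with wild-type DNMT1 (6 libraries, replicates 1, 2, 3, 7, 8 and 9), and DNMT1 KO cells (4 libraries, replicates 1 to 4). DNMT1 KO cells are a single published derivative of HCT116 with a deletion of exons in DNMT1, whose product copies DNA methylation onto newly made strands, and the study describes them as hypomorphic because a shortened DNMT1 protein is still made. Both lines were grown in the same medium, and the culture protocol names no metal or other treatment. The study sequenced these cells to ask how gene expression differed once DNMT1 was impaired, and here that question is put to a gene family packed into a single cluster.

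Metallothionein genes are switched on by metals. When free zinc rises in the cytoplasm, the zinc finger protein MTF1 moves to the nucleus and binds metal response elements, short motifs in the promoters of these genes and of the zinc exporter gene SLC30A1. The proteins then take up the metal through their cysteines and release it again when the cell is oxidised. Glucocorticoids and oxidative stress also raise metallothionein expression. MT2A is known as the most widely expressed human member, and the MT1 genes are more restricted.

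Polyadenylated RNA was sequenced as paired 50-base reads, with totals of 35418732 to 85991812 counts per HCT116 library and 26700853 to 55732013 per DNMT1 KO library. By the labels, both groups are present in batch 1 (replicate 1) and batch 2 (replicates 2 and 3), whereas DNMT1 KO replicate 4 forms batch 3 and the HCT116 libraries 7, 8 and 9 form batch 4. Levels are given as CPM, that is counts relative to the library total, after scaling of the library totals by the trimmed mean of M values (TMM). Differences are given as the log2 fold change of DNMT1 KO over HCT116 with its standard error (SE) and the adjusted p of edgeR's quasi-likelihood test over 19279 genes. Genes past 0.05 in adjusted p whose log2 fold change also exceeded 1 in size are referred to as called. DNMT1 itself was 153 ± 64.2 CPM (SD, n = 6) in HCT116 and 19.5 ± 3.68 CPM (SD, n = 4) in DNMT1 KO, with no overlap between the groups. Of the 7 tested colon epithelium markers, 4 were called lower in DNMT1 KO (6.49% of all tested genes were) and 1 was called higher (7.42% of all tested genes). The epithelial markers EPCAM and KRT8 were abundant in HCT116 (307 and 1674 CPM) and lower in DNMT1 KO (72.8 and 260 CPM), VIL1 went from 4 to 117 counts (log2 fold change 5.47, edgeR adjusted p = 0.000171) and CDX2 differed by 0.23 in log2 without passing. Of the 3 tested fibroblast markers 2 were called higher, COL3A1 from 6 to 773 counts (log2 fold change 7.84, edgeR adjusted p = 5.2e-06) and LUM from 2 to 365 counts (log2 fold change 8.18, edgeR adjusted p = 9.46e-06). COL1A1 was 12.5 CPM in HCT116, where it made up most of the fibroblast sum, and 6.72 CPM in DNMT1 KO. There COL3A1 and LUM stood beside it at 4.83 and 2.43 CPM, against 0.0231 and 0.00516 CPM in HCT116. The sum of the list ran from 6.22 to 19.6 CPM in HCT116 and from 11.1 to 18.1 CPM in DNMT1 KO. Endothelium markers summed to 0.29 to 1.58 CPM and 4.46 to 6.01 CPM, and immune markers to 0.0279 to 0.588 CPM and 1.75 to 2.52 CPM, while the leukocyte marker PTPRC had 2 counts in each group. The part of these differences in the results below was not tested.

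The cluster spans chr16:56565049-56684196 on hg38 and holds 16 metallothionein genes and pseudogenes, the 8 members included. The outermost members are MT2A, at chr16:56608584-56609497, and MT1X, at chr16:56682470-56684196. Between them lie MT1E at chr16:56625475-56627112, MT1M at chr16:56632659-56633981, MT1A at chr16:56638666-56640087, MT1F at chr16:56657731-56660698, MT1G at chr16:56666731-56668065 and MT1H at chr16:56669814-56671129. MT1G is read from the minus strand and the other members from the plus strand. Each member has a spliced transcript of 3 exons in the annotation. The coding part is 183 bases, or 61 codons, in 7 members and 186 bases, or 62 codons, in MT1G, and 20 of the codons encode cysteine in every member.

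The members are close copies of each other, which bears on how their reads could be counted. The coding sequences of the 4 members that had enough reads to be tested are shown for this reason, from the start codon to the last codon before the stop, read from hg38. In MT1E, MT1X and MT1F, capitals mark the bases that differ from MT2A.
MT2A: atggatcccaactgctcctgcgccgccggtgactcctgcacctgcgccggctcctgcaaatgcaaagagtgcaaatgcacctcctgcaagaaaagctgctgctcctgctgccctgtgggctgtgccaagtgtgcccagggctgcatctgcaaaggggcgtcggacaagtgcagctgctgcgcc
MT1E: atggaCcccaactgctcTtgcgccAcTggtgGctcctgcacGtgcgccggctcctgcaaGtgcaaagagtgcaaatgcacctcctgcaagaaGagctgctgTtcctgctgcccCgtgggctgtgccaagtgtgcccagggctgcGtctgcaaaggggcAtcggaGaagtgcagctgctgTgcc
MT1X: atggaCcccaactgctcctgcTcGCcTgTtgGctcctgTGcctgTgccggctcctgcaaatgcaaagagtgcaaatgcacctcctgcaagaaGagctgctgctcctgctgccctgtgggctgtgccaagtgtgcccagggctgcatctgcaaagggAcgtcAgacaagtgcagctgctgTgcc
MT1F: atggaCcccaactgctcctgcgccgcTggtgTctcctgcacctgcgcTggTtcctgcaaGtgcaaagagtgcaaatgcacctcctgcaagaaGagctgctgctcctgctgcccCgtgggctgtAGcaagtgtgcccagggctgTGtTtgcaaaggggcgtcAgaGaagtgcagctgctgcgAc
MT1E and MT1X each differed from MT2A at 14 of 183 positions (92.3% identity), and MT1F differed at 16 (91.3%). Over all pairs of the 7 members of this length, identity ran from 88.5% (MT1F and MT1X) to 94.5% (MT1A and MT1E). The annotated exons reach beyond the coding part, and there the members are less alike. Of the 50-base windows within the exons of MT2A, 4.97% were found at another place in the genome without a difference, against 14% in MT1E, 2.03% in MT1X and 0.741% in MT1F. Of the members with few or no reads, MT1M had the most windows within 2 differences of another metallothionein gene (62.6%). Reads from such windows can match more than 1 gene and be lost at a mapping quality filter. This share was 31.5% in MT1H, 27.3% in MT1A and 26.8% in MT1G, so the low counts of these members are uncertain. By the same measure it was 24.3% in MT1E, which had many reads, 9.02% in MT2A, 4.65% in MT1X and 3.48% in MT1F. Windows found elsewhere without a difference were 19% in MT1M, 15% in MT1G, 10.6% in MT1H and 0% in MT1A. The part of lost reads in the low counts was not tested.

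The promoters are shown because the MTF1 motif lies there. RefSeq promoter sequences on GRCh38.p14 were matched for 3 of the 8 members (MT2A, MT1H and MT1X). The 250 bases before the start of transcription are printed on the plus strand, and capitals mark the core of the metal response element, searched on both strands as TGCACNC or TGCGCNC.
MT2A, chr16:56608334-56608583: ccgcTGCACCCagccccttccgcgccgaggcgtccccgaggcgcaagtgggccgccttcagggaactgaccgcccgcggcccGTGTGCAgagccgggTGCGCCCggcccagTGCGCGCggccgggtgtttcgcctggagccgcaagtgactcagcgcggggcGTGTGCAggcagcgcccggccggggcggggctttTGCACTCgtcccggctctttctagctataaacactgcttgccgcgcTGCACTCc
MT1H, chr16:56669564-56669813: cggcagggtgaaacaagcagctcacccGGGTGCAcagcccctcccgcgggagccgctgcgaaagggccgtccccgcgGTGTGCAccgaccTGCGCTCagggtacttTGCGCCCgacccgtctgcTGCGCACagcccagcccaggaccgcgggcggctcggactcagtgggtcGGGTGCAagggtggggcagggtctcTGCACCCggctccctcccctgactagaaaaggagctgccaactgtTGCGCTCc
MT1X, chr16:56682220-56682469: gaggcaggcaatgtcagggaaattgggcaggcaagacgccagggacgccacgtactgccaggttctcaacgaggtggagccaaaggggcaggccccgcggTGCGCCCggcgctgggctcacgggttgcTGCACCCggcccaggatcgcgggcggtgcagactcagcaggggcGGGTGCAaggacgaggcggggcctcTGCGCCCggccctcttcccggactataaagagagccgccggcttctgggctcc
There were 7 cores in the MT2A promoter, 8 in that of MT1H and 4 in that of MT1X. Of 35116 RefSeq promoters of the same length, 24.8% held at least 1 core and 0.37% held 4 or more. GC boxes (GGGCGG on either strand), which are bound by SP1, numbered 2, 1 and 2 in the same order, and 42.6% of promoters held at least 1. The TATA box (TATAAA on either strand) was found once in MT2A and once in MT1X and not in MT1H, and 10.7% of promoters held it. Motifs were counted separately, so that a base could belong to more than 1 of them. CpG dinucleotides, the sites at which DNMT1 copies methylation, numbered 32 in the MT2A promoter and 22 in each of the other two, against a median of 11 over all promoters. These motif counts describe the sequence, and DNA methylation was not analysed here.

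The 8 members fell into those with many reads, those with some and those with next to none. MT2A and MT1E were abundant in HCT116 and lower in DNMT1 KO, by 2.25-fold and 3.33-fold. In RNA from whole cultures, fewer cells that express a gene and less RNA per cell cannot be told apart. MT1X was lower on average but did not pass the test, and MT1F differed little. MT1M, MT1A, MT1G and MT1H had between 0 and 8 counts in each library and were removed by the filter on low counts. Thus 2 of the 4 tested members were called lower in DNMT1 KO, where 6.49% of all tested genes were called lower. None was called higher by edgeR, against 7.42% of all tested genes, and none was higher at an unadjusted p under 0.05 or called higher by DESeq2 (0 of 4 in each case). Their 4 log2 fold changes had a median of -1.02, against -0.07 over all tested genes, and in none of the 4 were the groups' libraries free of overlap (15.2% of all tested genes).

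**Figure D1:**
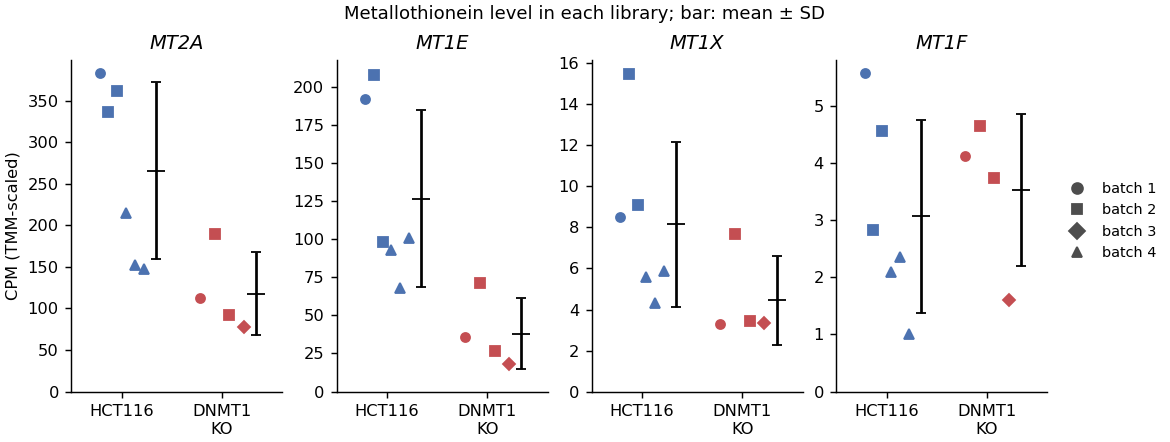
Level of the 4 tested metallothionein genes in each library, as TMM-scaled CPM on an axis that starts at 0 in each panel. Symbols give the batch and bars the mean ± SD of 6 HCT116 and 4 DNMT1 KO libraries. For MT2A, DNMT1 KO replicate 2 (190 CPM) lies above HCT116 replicates 8 and 9 (152 and 148 CPM).

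MT2A, which encodes the main metallothionein of most tissues, was the most abundant member. Its level in HCT116 ranged from 148 to 383 CPM with a median of 275 CPM, and in DNMT1 KO it was 112, 190, 92.0 and 77.5 CPM in replicates 1 to 4. The groups overlapped, because DNMT1 KO replicate 2 was higher than HCT116 replicates 8 and 9. The means were 266 ± 107 CPM (SD, n = 6) and 118 ± 50.3 CPM (SD, n = 4). In edgeR this was a log2 fold change of -1.17 (SE 0.35, adjusted p = 0.0346), past both thresholds by a small margin. Within batch 1 the log2 ratio of the DNMT1 KO library to the HCT116 library was -1.77, and within batch 2 that of the means was -1.30. With batch as a term in edgeR the log2 fold change was -1.46 (adjusted p = 0.004). The call was lost in 6 of the 10 fits that left out 1 library: without HCT116 replicate 1, 2 or 3 (adjusted p = 0.0815, 0.0714 and 0.0591) and without DNMT1 KO replicate 1, 3 or 4 (adjusted p = 0.11, 0.109 and 0.118), with log2 fold changes from -1.14 to -1.01 in these fits.

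MT1E, the second most abundant member, had the largest difference among those tested. It ranged from 68.1 to 208 CPM in HCT116, with a median of 99.5 CPM. In DNMT1 KO replicates 1 to 4 it was 35.5, 71.3, 26.9 and 18.2 CPM. Here too DNMT1 KO replicate 2 stood highest in its group, above HCT116 replicate 8 at 68.1 CPM and below the other HCT116 libraries. The means were 127 ± 58.1 CPM (SD, n = 6) and 38.0 ± 23.3 CPM (SD, n = 4), which gave a log2 fold change of -1.74 (SE 0.42) with an edgeR adjusted p of 0.00923. Within batch 1 the log2 ratio was -2.43, and within batch 2 that of the means was -1.64. The call held in each of the 10 fits that left out 1 library, with log2 fold changes from -2.23 to -1.51.

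MT1X lies at the far end of the cluster from MT2A. A noncoding RNA gene on the same strand (ENSG00000259827, chr16:56682470-56687807) shares 321 of the 1727 exon bases of MT1X and was listed at 0 counts in all 10 libraries. By default featureCounts leaves out reads that overlap exons of more than 1 gene, so that the counts of MT1X may be too low in both groups. The 3-exon transcript of MT1X is only 404 bases, and how much of it is shared was not examined. MT1X ranged from 4.32 to 15.5 CPM in HCT116 (median 7.18 CPM) and was 3.31, 7.68, 3.43 and 3.34 CPM in DNMT1 KO replicates 1 to 4. DNMT1 KO replicates 1, 3 and 4 lay below the whole HCT116 range, and replicate 2 lay within it. The log2 fold change was -0.87 (SE 0.40), which did not pass (edgeR adjusted p = 0.168). With batch as a term it was -1.22 and was called (adjusted p = 0.0263), although batches 1 and 2 alone, with the same term, gave -1.22 with an adjusted p of 0.0691.

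MT1F did not follow the same pattern. Its level was between 0.999 and 5.57 CPM in HCT116 (median 2.59 CPM), and 4.12, 4.64, 3.73 and 1.6 CPM in DNMT1 KO replicates 1 to 4. The ranges overlapped almost wholly, with means of 3.06 ± 1.69 CPM (SD, n = 6) and 3.52 ± 1.33 CPM (SD, n = 4). EdgeR gave a log2 fold change of 0.21 (SE 0.45, adjusted p = 0.808), and it was -0.021 with batch as a term.

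The other members had too few reads for a test. MT1G had 4 counts in a single HCT116 library (replicate 8) and 8 and 4 counts in DNMT1 KO replicates 2 and 3. MT1A had 2 and 4 counts in HCT116 replicates 7 and 9, and 2, 6 and 2 counts in DNMT1 KO replicates 1, 2 and 3. MT1M had 2 counts in HCT116 replicate 9 and none elsewhere, and MT1H had none in any library. All of these counts were even numbers, as were 64.4 to 70.0% of all values from 1 to 10 in 9 libraries, against 39.9% in DNMT1 KO replicate 4, so that both reads of a pair may have been counted. Counted as pairs, the ratio of DNMT1 KO to HCT116 was 5.38 for MT1G (6 against 2 pairs, exact 95% interval 0.962 to 54.5) and 2.99 for MT1A (5 against 3 pairs, exact 95% interval 0.581 to 19.2). Both intervals include 1, they cover counting error only, and no difference was detectable at this depth. These ratios weigh all libraries by their counted totals. If DNMT1 KO replicate 4 counted each pair once, its weight was too small and both ratios are too high. For MT1H, the absence of counts allows a level of up to 0.0178 CPM over the HCT116 libraries and 0.032 CPM over the DNMT1 KO libraries, at a limit of 3 pairs. The DNMT1 KO limit may be too high for the same reason.

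**Figure D2:**
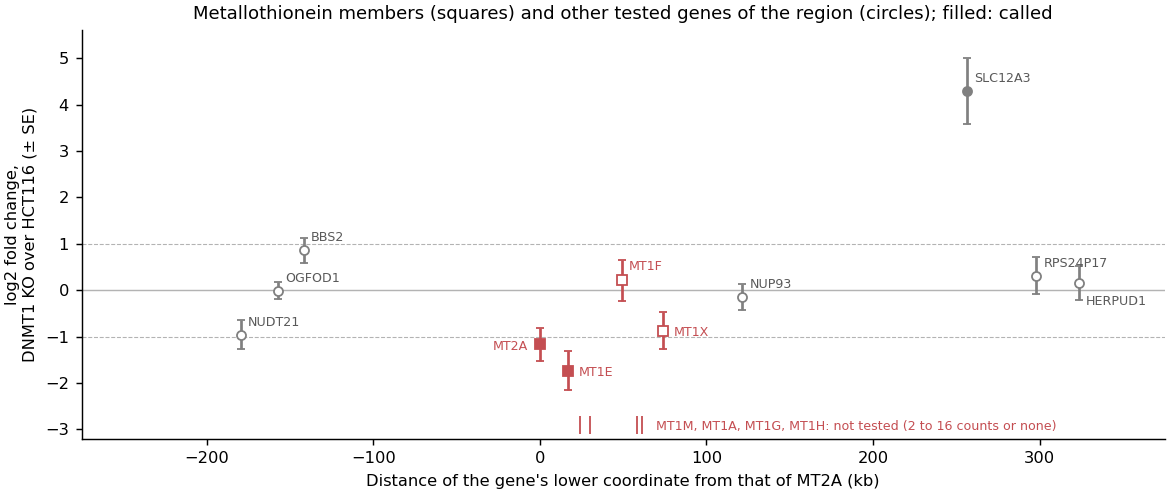
Log2 fold change of DNMT1 KO over HCT116 (± SE, edgeR) against the distance in kb from the lower coordinate of MT2A, for the metallothionein members (squares) and 7 of the other tested genes within 250 kb of the cluster (circles). Filled symbols were called, dashed lines mark the fold threshold and ticks mark the 4 members without a test; MT2A and MT1E are called lower and SLC12A3 is called higher.

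By position, the called members MT2A and MT1E were neighbours at the start of the group. They were followed by MT1M and MT1A, which had at most 6 counts in a library, then by MT1F with a log2 fold change of 0.21, by MT1G and MT1H with at most 8 counts, and by MT1X at -0.87. Members with reads and members with next to none were thus interleaved along the cluster. Outside it, 8 of the 19 other genes within 250 kb were tested. The nearest tested gene before the cluster was BBS2, a gene of the ciliary BBSome complex, whose end lies 44962 bases away. It was 23 ± 6.63 CPM (SD, n = 6) in HCT116 and 41.7 ± 10.3 CPM (SD, n = 4) in DNMT1 KO, with a log2 fold change of 0.86 (edgeR adjusted p = 0.0406) that was under the fold threshold. BBS2 was called without HCT116 replicate 3 (1.01, adjusted p = 0.0158) or DNMT1 KO replicate 4 (1.02, adjusted p = 0.0244). The nearest tested gene after it, NUP93, a nuclear pore gene 45922 bases away, had a log2 fold change of -0.14 (edgeR adjusted p = 0.802). Of the 8 tested neighbours 1 was called, and it was higher, where 7.42% of all tested genes were called higher and 13.9% in either direction. This was SLC12A3, the kidney sodium chloride transporter gene at chr16:56865207-56915850 (log2 fold change 4.29, edgeR adjusted p = 0.000549). It went from 0 to 2 counts in each HCT116 library to 8, 14, 20 and 8 counts in DNMT1 KO replicates 1 to 4, so that its fold rests on few reads. NUDT21 had a log2 fold change of -0.96 (edgeR adjusted p = 0.0463), and OGFOD1, RPS24P17 and HERPUD1 lay between -0.01 and 0.31 with edgeR adjusted p of 0.671 or more.

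Between genes, levels were compared per kb of sequence. Per kb of annotated exon, MT2A stood at 291 ± 117 CPM (SD, n = 6) in HCT116, followed by MT1E at 120 ± 55.2, MT1X at 4.72 ± 2.35 and MT1F at 1.65 ± 0.911. In DNMT1 KO the order of the mean levels per kb was the same, at 129 ± 55, 36.1 ± 22.1, 2.57 ± 1.25 and 1.90 ± 0.721 CPM (SD, n = 4). In DNMT1 KO the ranges of MT1X (1.92 to 4.45 CPM per kb) and MT1F (0.863 to 2.50 CPM per kb) overlapped, so that their order was not larger than the spread between libraries. MT2A ranked 187th and MT1E 546th among 19279 tested genes by mean level per kb in HCT116, and 389th and 1588th in DNMT1 KO. The annotated exons of MT1X (1727 bases) and MT1F (1852 bases) are much longer than their 3-exon transcripts (404 and 425 bases). Per kb of these transcripts the HCT116 levels were 663 CPM for MT2A, 180 CPM for MT1E, 20.2 CPM for MT1X and 7.21 CPM for MT1F, in the same order.

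Summed over the 8 members, the level was 404 ± 158 CPM (SD, n = 6) in HCT116 and 164 ± 76.6 CPM (SD, n = 4) in DNMT1 KO. MT2A supplied 65.7 ± 6.62% of this sum in HCT116 and 72.9 ± 3.13% in DNMT1 KO. The share of MT1E was 31.5 ± 6.55% and 22.1 ± 3.28%, and that of MT1F was 0.75 ± 0.27% and 2.22 ± 0.686%. In each of the 4 DNMT1 KO libraries the share of MT1F (1.59 to 2.96%) was above the highest HCT116 library (1.04%).

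The balance between members within a library does not depend on how libraries are scaled to each other, and it was compared as log2 ratios. All 6 ratios between the 4 tested members were examined, a comparison chosen after the counts had been seen, with a two-sided exact permutation test over the 210 assignments of the libraries and p-values adjusted over the 6. The smallest p this design allows is 0.00952. MT1E relative to MT1F had a mean log2 ratio of 5.45 ± 0.84 (SD, n = 6) in HCT116 and 3.35 ± 0.48 (SD, n = 4) in DNMT1 KO. The groups did not overlap (difference -2.10, exact permutation p = 0.00952, adjusted p = 0.019), with -2.0 in batch 1 and -1.92 in batch 2, and values from -2.31 to -1.86 when each library was left out in turn. MT2A relative to MT1F differed by -1.45 (exact permutation p = 0.00952, adjusted p = 0.019), with -1.34 within batch 1 and -1.61 within batch 2. MT1E relative to MT1X differed by -0.95 (exact permutation p = 0.00952, adjusted p = 0.019), with -1.07 and -0.49 within the batches. Thus MT1E and MT2A were lower relative to MT1F, and MT1E was lower relative to MT1X, without overlap between the libraries of the groups. For MT1E over MT1F, HCT116 libraries ranged from 4.43 to 6.66 and DNMT1 KO libraries from 2.85 to 3.94. For MT1E over MT1X the ranges almost met, from 3.43 to 4.49 in HCT116 and from 2.45 to 3.42 in DNMT1 KO. The share of other gene pairs whose ratios do not overlap was not examined. The permutations take no account of batch, and batches 3 and 4 each hold 1 group. The other 3 ratios did not pass. MT2A relative to MT1E differed by 0.65 (exact permutation p = 0.0476, adjusted p = 0.0714, and 0.0238 without HCT116 replicate 3), MT1F relative to MT1X by 1.15 (exact permutation p = 0.0667, adjusted p = 0.08) and MT2A relative to MT1X by -0.30 (exact permutation p = 0.248, adjusted p = 0.248). These 6 ratios share genes and are not independent of each other.

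**Figure D3:**
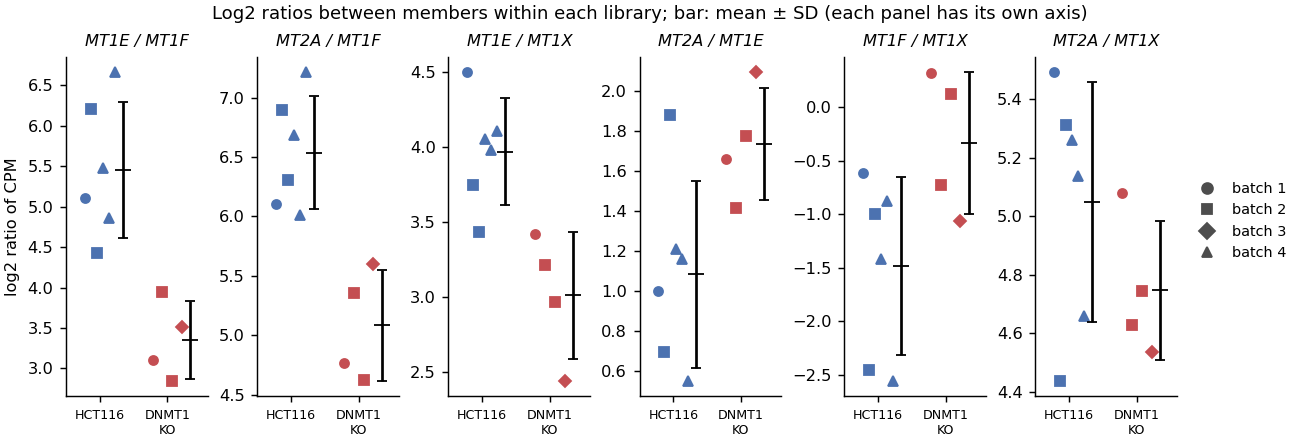
Log2 ratio of CPM between each pair of tested members in each library, with symbols for the batch and bars for the mean ± SD of 6 HCT116 and 4 DNMT1 KO libraries. The groups do not overlap for MT1E over MT1F, MT2A over MT1F and, by a narrow margin, MT1E over MT1X. Each panel has its own axis, which does not start at 0.

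The levels also varied within HCT116. The 3 libraries of batch 4 were compared with the 3 of batches 1 and 2 by the same edgeR test, in which 4.94% of 18656 tested genes were called lower in batch 4 and 3.09% higher. MT2A was 336, 361 and 383 CPM in batches 1 and 2 and 148, 152 and 215 CPM in batch 4, and was called lower there (log2 fold change -1.09, SE 0.32, adjusted p = 0.0495). MT1E (-0.94, adjusted p = 0.104), MT1X (-1.08, adjusted p = 0.0759) and MT1F (-1.27, adjusted p = 0.093) were lower in batch 4 by a similar size without passing edgeR's test. Hence the difference between batches of HCT116 in MT2A and MT1X was about as large as that between DNMT1 KO and HCT116, whereas DNMT1 KO has no library in batch 4. Within batches 1 and 2, where both groups are present, the DNMT1 KO libraries were lower in MT2A, MT1E and MT1X, by the values given for each gene.

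Among the other metallothionein genes and pseudogenes, 3 of 13 were tested, of which 1 was called lower (6.49% of all tested genes were) and none higher (none also at an unadjusted p under 0.05 or by DESeq2). MT1DP went the other way without passing (log2 fold change 0.93, SE 0.58, edgeR adjusted p = 0.326), at means of 0.24 CPM in HCT116 and 0.448 CPM in DNMT1 KO. The one called was MT1P3, a pseudogene on chromosome 20. Its level was 2.54 ± 0.683 CPM (SD, n = 6) in HCT116 and 0.786 ± 0.545 CPM (SD, n = 4) in DNMT1 KO, a log2 fold change of -1.68 (SE 0.44, edgeR adjusted p = 0.0154) beside -1.74 in MT1E. The MT1P3 call was lost without DNMT1 KO replicate 1 (-1.47, adjusted p = 0.0706) or 3 (-1.44, adjusted p = 0.055). Counts of MT1P3 were 2.23 ± 0.676% of those of MT1E in HCT116 (SD, n = 6) and 2.21 ± 1.14% in DNMT1 KO (SD, n = 4). MT1XP1, a pseudogene of MT1X on chromosome 1, had a log2 fold change of -0.82 (edgeR adjusted p = 0.108; -1.17 and called without DNMT1 KO replicate 2, adjusted p = 0.0319) and more counts than MT1X in each library, by 1.55 ± 0.274 times (SD, n = 6) in HCT116 and 1.53 ± 0.194 times (SD, n = 4) in DNMT1 KO. Both pseudogenes lack introns, and the aligner of the study does not split reads across exon junctions. Of the 98 windows of 50 bases that cross an exon junction of MT1X, 20 were present without a difference in MT1XP1 and 49 were within 2 differences of it. For MT1E and MT1P3 the numbers were 13 and 77 of 98. Junction reads of these members could therefore have been placed on the pseudogenes, and the part of such reads in their counts was not tested.

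The genes that sense, move and compete for the same metals were described from lists. Of 5 genes for transcription of metallothionein genes, all tested, none was called in either direction by edgeR or DESeq2, with 1 higher and 1 lower at an unadjusted p under 0.05. MTF1, the metal-sensing transcription factor, was 62.1 ± 18.9 CPM (SD, n = 6) in HCT116 and 56.5 ± 4.14 CPM (SD, n = 4) in DNMT1 KO (log2 fold change -0.13, edgeR adjusted p = 0.779), and all 4 DNMT1 KO libraries lay within the HCT116 range. SLC30A1, the plasma membrane zinc exporter that MTF1 also switches on, ranged from 21.9 to 155 CPM in HCT116 (median 40.8 CPM) and was 30.3, 48.3, 78.5 and 20.9 CPM in DNMT1 KO replicates 1 to 4. The difference of -0.42 in log2 (SE 0.50) did not pass edgeR's test (adjusted p = 0.644), and it was 0.16 without HCT116 replicate 2, the library at 155 CPM. The SLC30A1 values in the groups overlapped, and the direction of the difference turned on that library. Within HCT116, SLC30A1 was lower in batch 4 than in batches 1 and 2 (log2 fold change -1.61, edgeR adjusted p = 0.0266).

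Of the SLC30 zinc exporters, 8 of 10 were tested, 1 was called higher (7.42% of all tested genes were) and none lower by edgeR or DESeq2 (also none at an unadjusted p under 0.05). The called gene was SLC30A10, which exports manganese, with 0 to 4 counts in each HCT116 library and 53, 88, 14 and 72 counts in DNMT1 KO replicates 1 to 4 (log2 fold change 5.63, edgeR adjusted p = 7.42e-05). Its mean level of 1.41 CPM in DNMT1 KO remained far under that of SLC30A1. SLC30A4 was 11.1 CPM in HCT116 and 21.7 CPM in DNMT1 KO, with a log2 fold change of 0.97 (edgeR adjusted p = 0.0442) under the fold threshold. Of the SLC39 zinc importers, 10 of 14 were tested, 1 was called lower (6.49% of all tested genes were) and none higher by edgeR or DESeq2 (also none at an unadjusted p under 0.05). With 1 call each, the shares of these transporter lists were near those of all genes, and their median log2 fold changes were -0.13 and -0.16. This was SLC39A11, also known as ZIP11, at 82.9 ± 35.8 CPM (SD, n = 6) in HCT116 and 30.7 ± 10.8 CPM (SD, n = 4) in DNMT1 KO (log2 fold change -1.43, SE 0.34, edgeR adjusted p = 0.00951). As in MT2A, the HCT116 libraries of batch 4 were lower than those of batches 1 and 2 in SLC39A11 (log2 fold change -1.08, edgeR adjusted p = 0.0442).

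Copper handling genes, all 9 of which were tested, included none that was called by edgeR or DESeq2, with 1 higher and 1 lower at an unadjusted p under 0.05. Their median log2 fold change was -0.06. Of 8 NRF2 target genes, all tested, 1 was called lower, again near the 6.49% of all tested genes, and none higher by edgeR or DESeq2 (none also at an unadjusted p under 0.05). The called gene, SLC7A11, encodes the cystine importer that feeds glutathione synthesis. It ranged from 78.4 to 710 CPM in HCT116 (median 147 CPM) and was 20.9, 19.4, 119 and 15.9 CPM in DNMT1 KO replicates 1 to 4, with a log2 fold change of -2.44 (SE 0.72, edgeR adjusted p = 0.0313). The call was lost without HCT116 replicate 2 (-1.71, adjusted p = 0.0575) and without DNMT1 KO replicate 1, 2 or 4 (adjusted p = 0.0965, 0.0998 and 0.0909). Within HCT116, SLC7A11 was lower in batch 4 than in batches 1 and 2 (log2 fold change -1.68, edgeR adjusted p = 0.0485). HMOX1 and NQO1, classical NRF2 targets, had log2 fold changes of 0.01 and -0.24 that did not pass.

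**Figure D4:**
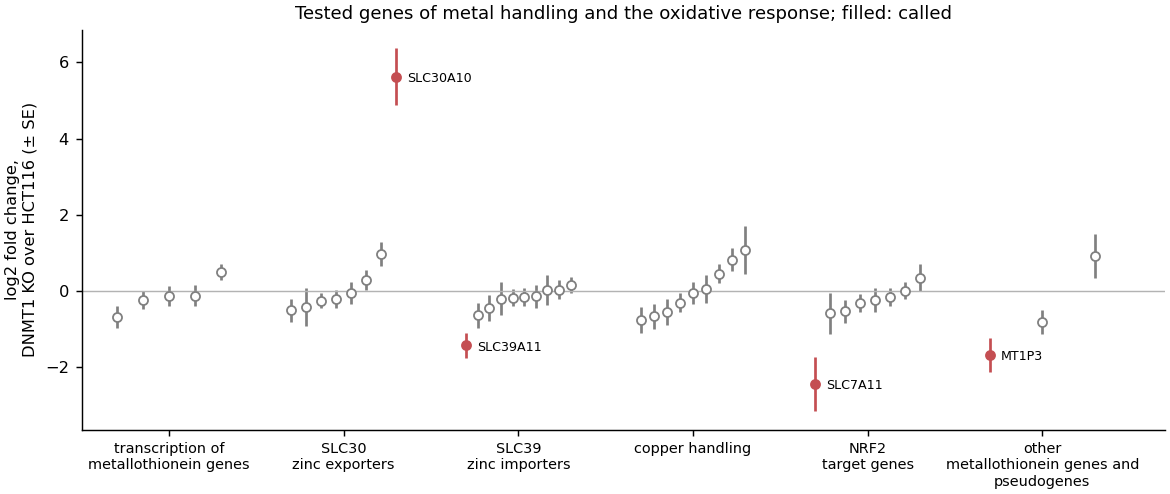
Log2 fold change of DNMT1 KO over HCT116 (± SE, edgeR) for each tested gene of 6 lists around metallothionein function, ordered by value within a list. Filled symbols were called: SLC30A10 higher, and SLC39A11, SLC7A11 and MT1P3 lower; the remaining genes lie between -0.82 and 1.09.

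The test of the members was repeated under 21 alternatives of scaling, filtering, batch treatment, tool and libraries. MT1E was lower in DNMT1 KO in all 21 and MT2A and MT1X likewise, whereas the calls of MT2A and MT1X depended on the setting and MT1F changed sign in 4.

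**Figure D5:**
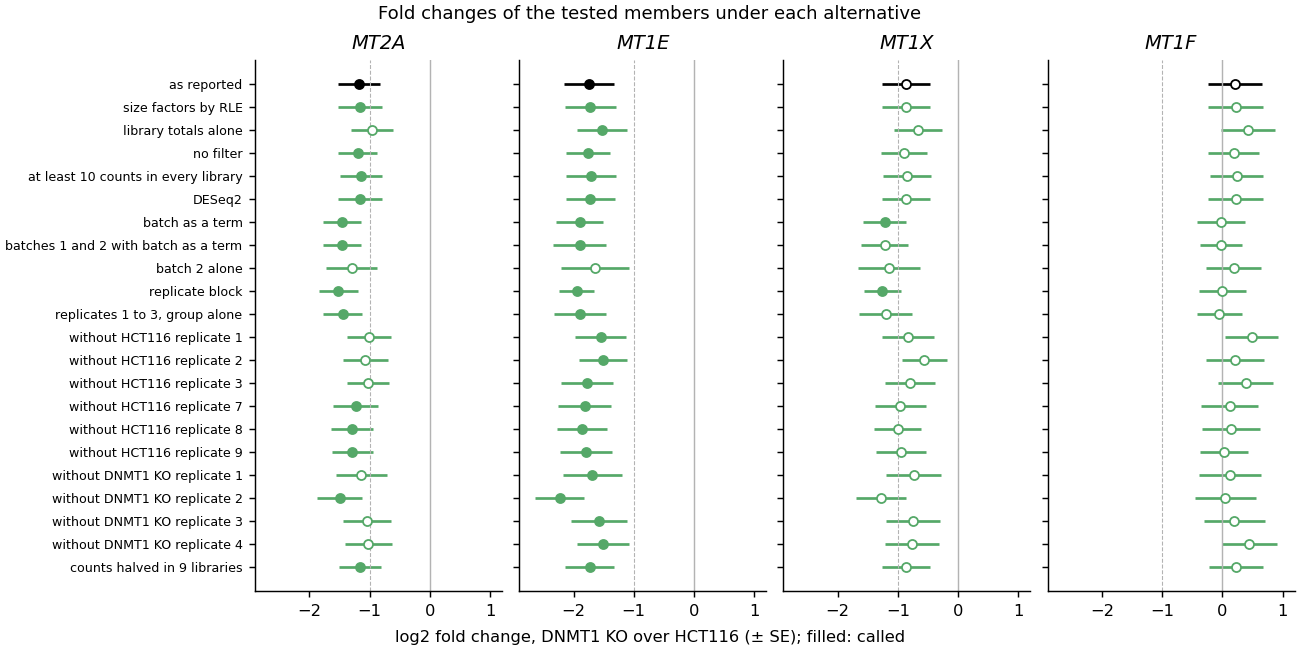
Log2 fold change (± SE) of the 4 tested members under each processing alternative, with filled symbols where the member was called and the dashed line at the fold threshold. MT1E is called in 20 of 21 alternatives and MT2A in 13 of 21, while MT1F stays between -0.048 and 0.49.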

How the data were processed

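Polyadenylated RNA of HCT116 and DNMT1 KO cells was made into stranded libraries and sequenced as paired 50-base reads. According to the study's methods, the authors trimmed reads with TrimGalore 0.4.1, aligned them to hg38 by bowtie2, an aligner without spliced mapping, dropped reads under a mapping quality of 10 and ran featureCounts on exons, where a strand setting is not mentioned. Each library's deposited table holds raw counts of genes, without normalisation. A further 3 tables whose sample is not in the list used here were left out.

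Coordinates, strands and exon lengths of genes come from the deposited count tables, and symbols were matched by Ensembl identifier. Gene types and transcripts come from GENCODE release 44. Genes were tested with edgeR 4.0.16 in R 4.3.3 (TMM, filterByExpr, glmQLFit, glmQLFTest; two-sided, with no term but group, Benjamini-Hochberg over 19279 genes), which was tested first on simulated data. SE was taken as the absolute log2 fold change over the root of F. The culture of each replicate was separate according to the study. Replicate numbers were not taken as pairs in the main fit. Same-numbered libraries did not deviate together throughout (r = 0.463, -0.199 and 0.375), which does not settle whether the numbers pair the groups. Alternatives were other scalings and filters, DESeq2 1.42.0, batch terms, a replicate block and leaving out each library.

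The members and gene lists were chosen with earlier results of these data known. Named genes were the 8 members, MTF1 and SLC30A1, up to 3 called genes of at least 1 CPM per list, the nearest tested and any called neighbours, and the 5 profiles nearest to MT2A; other genes were named after their values were seen. The values of 1 tested neighbour are not reported here. Permutation tests used scipy 1.17.1. Counts give precision limits from counting error only.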

Additional observations from a re-analysis of the deposited data

Results flagged for a closer look

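Values of the named genes and of the member ratios were screened for single libraries far from the rest of their group, by Dixon's criterion at 95%. Of 48 groups of libraries, 4 held such a library, where chance gives about 1 in 20, or 2.4. In MT1X, DNMT1 KO replicate 2 stood at 7.68 CPM, with the other DNMT1 KO libraries between 3.31 and 3.43 CPM. The same library was the highest of its group in MT2A, MT1E and MT1F without being singled out there. Without it, the log2 fold change of MT1X was -1.28 (edgeR adjusted p = 0.0641).

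In SLC7A11, HCT116 replicate 2 stood at 710 CPM, with the other HCT116 libraries between 78.4 and 232 CPM, and DNMT1 KO replicate 3 stood at 119 CPM, with the others between 15.9 and 20.9 CPM. In SLC30A1, HCT116 replicate 2 stood at 155 CPM, with the others between 21.9 and 65.7 CPM. HCT116 replicate 2 was also the highest HCT116 library in MT1E and MT1X.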

How the results depend on the processing

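Under 21 alternatives no member was called higher. MT1E was called in 20, and batch 2 alone (2 libraries a group) gave -1.64 without a call. MT2A was called in 13, with the call lost for library totals alone (-0.96), in batch 2 alone (-1.30) and in 6 of 10 fits without 1 library (range -1.50 to -1.01). Library totals alone moved the median of all genes from -0.07 to 0.14, and relative to that median MT2A was -1.10 in both fits. Thus 2 members called lower became 1 with library totals alone, 0 in batch 2 alone and 1 to 2 without 1 library. They became 3 with batch as a term and 3 with the replicate number as a block. MT1X was called with batch as a term (-1.22). MT1F turned to -0.021 with batch as a term, -0.019 in batches 1 and 2 with that term and -0.048 in replicates 1 to 3 with group alone, a fit added after the data were seen. Over all genes, 1431 higher and 1251 lower calls became 734 and 766 with at least 10 counts in every library, which tests fewer genes, and 815 and 798 in batch 2 alone, which uses fewer libraries. For the other changes of call the cause was not tested.

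With the replicate number as a block, MT1X was called at -1.26, MT1F was -0.0035, MT2A -1.52 and MT1E -1.95. Whether the numbers pair the libraries is not settled, and the main fit did not take them as pairs. MTF1 was 0.073 with library totals alone. SLC30A1 ranged from -0.83 to 0.16 without 1 library. NUP93 turned positive with library totals alone (0.08), with batch as a term (0.27, also in batches 1 and 2), in batch 2 alone (0.37), with the block (0.21) and in replicates 1 to 3 (0.25), and ranged from -0.28 to 0.06 without 1 library. Of 279 values of the 14 other named genes, 240 kept direction and call.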

Other observations

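The tested genes with a symbol whose profile over the 10 libraries was most like that of MT2A were found by the root mean square difference of log2(CPM + 0.1), each centred on its own mean. The 5 nearest of 17139 genes were SUNO1, LINC01503, SREBF1, IQCE and MT1XP1, with differences of 0.2 to 0.307 against a median of 0.947. SREBF1, the transcription factor of sterol and fatty acid synthesis, was 319 ± 106 CPM (SD, n = 6) in HCT116 and 142 ± 27.5 CPM (SD, n = 4) in DNMT1 KO. It was called lower without overlap between the groups (log2 fold change -1.17, SE 0.29, edgeR adjusted p = 0.0112). This call was lost with library totals alone (-0.96). It was picked here for following MT2A over these same libraries, so its difference is no independent result. Groups did not overlap in 15.2% of all tested genes. IQCE had a log2 fold change of -0.99 (edgeR adjusted p = 0.0346) and was called without HCT116 replicate 8 (-1.12, adjusted p = 0.0123) or 9 (-1.10, adjusted p = 0.0166), and the noncoding SUNO1 and LINC01503, at 0.359 and 1.86 CPM in HCT116, did not pass, although SUNO1 did without HCT116 replicate 9 (-2.09, adjusted p = 0.0433). Of the members, MT1X was 20th in likeness to MT2A (0.352), MT1E was 243rd (0.483) and MT1F was 4687th (0.808). All profiles share the same 10 libraries, their depth and their scaling, so these ranks describe the data and are no test.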
